A study of Mus musculus with 66 samples.

Results

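The first 30 minutes after release from a mitotic arrest were examined in mouse embryonic stem cells that were given no auxin. RNA levels at 20 and at 30 minutes were set against those of arrested cells for every gene listed with at least 1 TPM (transcript abundance relative to gene length and to the total of the library) in any of the 9 columns without auxin, which kept 8871 of 13957 genes. The gene just inside that limit was Prss36 at 1 TPM and the gene just outside it was Srd5a3 at 0.998 TPM. The cells were a derivative of the E14Tg2a line, of 129/Ola origin, engineered so that auxin removes Esrrb and Nr5a2, a pair of orphan nuclear receptors that help to maintain pluripotency. The 3 groups described here are mitosis-arrested cells, cells 20 minutes after release and cells 30 minutes after release, with 3 libraries each and 9 in all, and every one of these cells carried the degradable receptors without receiving auxin. The matching groups that received auxin serve only as other libraries in which the same genes can be read again. The whole series has 18 such RNA groups, and its stated purpose is to follow how transcription returns in cells that keep or lose the receptors. The labels call the treatment a control in every library, so the arm was read from the sample titles, and neither the method of arrest nor the origin of the 3 libraries (separate cultures or one) is stated.

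During mitosis chromosomes condense, most transcription factors and RNA polymerase II leave the DNA, and synthesis of new transcripts largely stops. Transcription starts again as cells leave mitosis, in successive groups of genes, before the daughter cells settle into G1. RNA that is long-lived passes through division, so the level of a transcript in an arrested cell is what was left from before, together with any residual synthesis.

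The deposited values are the authors' means of 3 libraries, so no value below has a replicate error, no gene has a test, and the depth per library is unknown. The labels do not say whether exons, introns or whole genes were counted, so the values are called RNA levels. Summed over the listed genes, the columns held 17189 TPM (mitosis), 18417 TPM (20 minutes), 17334 TPM (30 minutes) and 22898 TPM (40 minutes). In bulk samples of this kind, a smaller share of cells of a type and less RNA per cell cannot be told apart, nor can a late response of all cells from a full response of some. Markers of undifferentiated cells were present, such as Pou5f1 at 6.75, 6.51 and 7.26 TPM and Zfp42 at 18.6, 18.6 and 15.9 TPM in mitosis, at 20 and at 30 minutes; 7 of the 8 markers on that list are in the table. The 6 listed markers of primitive endoderm summed to 0.05, 0.05 and 0.06 TPM, with Foxa2 and Cubn listed at 0 throughout. The 3 listed markers of the two-cell-like state summed to 0.20, 0.16 and 0.20 TPM, the 6 of trophectoderm to 1.03, 1.06 and 1.24 TPM and the 5 of the germ layers to 1.32, 1.43 and 1.54 TPM. Of the 5 listed fibroblast markers, Col1a1, Pdgfra and Thy1 were at or below 0.07 TPM and Vim at or below 0.74 TPM, while Fn1, which stem cells also express, was at 4.13, 4.35 and 3.51 TPM.

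Most genes stayed close to the mitotic level through these 30 minutes. At 20 minutes 8520 genes (96.0%) were within 1.2-fold of mitosis and at 30 minutes 8067 genes (90.9%) were, on the scale of log2(TPM + 1) that is used for all differences here. That scale understates changes of low genes, and the median gene kept was at 1.17 TPM in mitosis. The median difference was 0.04 at 20 minutes and -0.01 at 30 minutes. The middle 90% of genes lay between -0.07 and 0.24 at 20 minutes and between -0.20 and 0.33 at 30 minutes, and the SD across genes was 0.103 and 0.172. At 20 minutes 6528 genes (73.6%) stood above mitosis by any amount, against 4158 (46.9%) at 30 minutes. The 2 times share the same mitotic libraries, so these values are not independent of each other.

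A gene was called above or below mitosis when it differed by at least 1.5-fold on this scale. At 20 minutes 10 genes were called above and 4 below, which is 0.113% and 0.0451% of the genes measured. At 30 minutes 88 genes were called above and 3 below, which is 0.992% and 0.0338%. The call at both times was shared by 8 genes above (0.0902%) and by no gene below (0%). At 40 minutes, the next time sampled, 1448 genes (16.3%) were called above and 5 (0.0564%) below, so the first 30 minutes precede the time at which many genes were higher. The limit fell between Surf2 at 0.59 and Eif4a1 at 0.57 at 20 minutes, and between Dnajb1 at 0.59 and Klf4 at 0.58 at 30 minutes.

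The difference between arrested cells of the 2 arms shows how far group means of this study can lie apart before any release. Mitosis with auxin against mitosis without it had a median difference of 0.01 and an SD across genes of 0.0933, with 3 genes called above (0.0338%) and 13 below (0.147%). The 10 and 4 calls at 20 minutes are of the same order as those 3 and 13, and the 3 genes called below at 30 minutes are too. The 88 genes called above at 30 minutes are more than either the 3 or the 13 between the arms, although the loss of the receptors is itself part of that comparison.

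**Figure D1:**
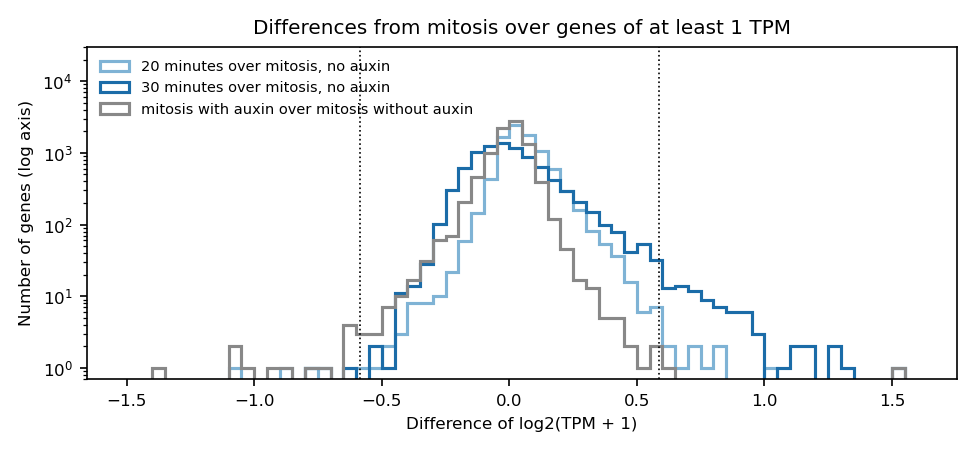
Number of genes (log axis) by the difference of log2(TPM + 1) in bins of 0.05, for 20 minutes against mitosis and 30 minutes against mitosis without auxin, and for mitosis with auxin against mitosis without it, over the same 8871 genes. Dotted lines mark 1.5-fold. To the right lie 88 genes at 30 minutes, 10 at 20 minutes and 3 between the arms. To the left lie 3, 4 and 13 genes in the same order.

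Among the largest differences at 30 minutes, 3 of the first 12 genes encode proteins of the cytoplasmic ribosome. Rpl10a, a protein of the large ribosomal subunit, was at 1.23, 2.61 and 5.50 TPM in mitosis, at 20 and at 30 minutes, and was 0.69 and 1.54 above mitosis. Rpl9, of the same subunit, was at 0.59, 0.73 and 2.36 TPM at the same times, and was 0.12 and 1.08 above mitosis. Rpl13, also of that subunit, was at 3.81, 4.55 and 8.53 TPM, and was 0.21 and 0.99 above mitosis. Rpl10a passed 1.5-fold at both times, while the other two were within 1.2-fold of mitosis at 20 minutes. With auxin Rpl10a was 0.25 above mitosis at 20 minutes, and its mitotic level there was 0.57 above that without auxin.

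Among the first 12 genes were also Rsrp1 and Srsf5, both with larger differences at 30 minutes than Rpl9 and Rpl13, and Rbm38. Srsf5, a serine/arginine-rich splicing factor, was at 2.45, 3.50 and 6.68 TPM in mitosis, at 20 and at 30 minutes, and Rsrp1, an arginine/serine-rich protein, was at 4.03, 5.82 and 10.5 TPM. Their differences at 30 minutes were 1.16 and 1.19. Rbm38, an RNA-binding protein and target of p53, was at 3.91, 5.60 and 8.61 TPM, 0.97 above mitosis at 30 minutes. These 3 genes were already higher at 20 minutes, by 0.38, 0.44 and 0.43, without reaching the 1.5-fold line.

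The other members of the first 12 are of varied roles. Hist1h2br, a replication-dependent histone H2B gene, was at 0.41, 1.05 and 2.55 TPM in mitosis, at 20 and at 30 minutes, and was 0.54 and 1.34 above mitosis. Cox6b2, a subunit of cytochrome c oxidase known from testis, was at 2.44, 3.43 and 5.75 TPM, 0.97 above at 30 minutes. Marcksl1, an actin- and calmodulin-binding protein of the MARCKS family, was at 1.24 TPM both in mitosis and at 20 minutes and at 3.81 TPM at 30 minutes, 1.10 above. Histone genes of this cluster and ribosomal protein genes have near-identical copies or pseudogenes elsewhere in the genome, so how the authors' counting shared reads among them is uncertain.

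Adat3, the non-catalytic subunit of a tRNA adenosine deaminase, was at 0.75, 0.55 and 2.77 TPM in mitosis, at 20 and at 30 minutes, 1.11 above mitosis at 30 minutes. It overlaps Scamp4, a membrane trafficking gene that was among the 3 genes called below at 30 minutes, at 3.03, 3.22 and 1.46 TPM. The sum of the pair was 3.78, 3.77 and 4.23 TPM, so opposite differences left the sum near its mitotic level, and reads of overlapping genes cannot be told apart with certainty. With auxin the same exchange was smaller, with Adat3 at 0.99, 0.64 and 1.80 TPM and Scamp4 at 2.48, 3.36 and 1.89 TPM. Snhg17, a host gene of small nucleolar RNAs, was listed at 0 in mitosis and at 20 minutes and at 1.43 TPM at 30 minutes, and it was listed at 0 in all 3 groups of the arm with auxin. With no library values for Snhg17, whether 1 library gave that mean is not known.

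**Figure D2:**
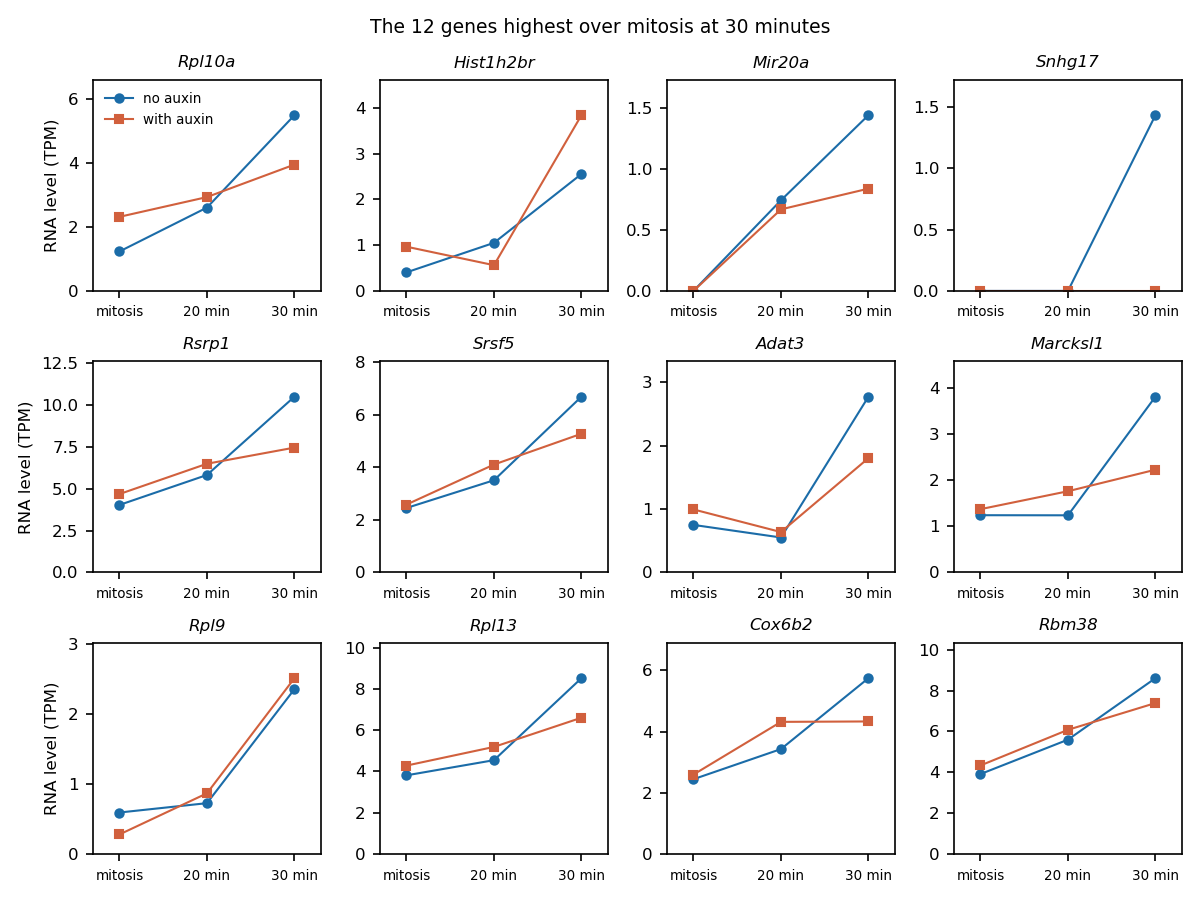
RNA level in TPM (linear axes from 0) in mitosis, at 20 and at 30 minutes for the 12 genes with the largest difference at 30 minutes, without auxin and with auxin; each point is the authors' mean of 3 libraries and has no error bar. Rpl10a, Rsrp1 and Srsf5 are higher at each later time without auxin, and Snhg17 stays at 0 with auxin.

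The first genes to pass the line, at 20 minutes, included the small RNA genes Mir34a and Mir20a. Mir34a, the hairpin gene of a p53-induced microRNA, was at 0.24, 1.48 and 1.13 TPM in mitosis, at 20 and at 30 minutes, and its difference of 1.001 was the largest at 20 minutes among the genes kept. With auxin it was at 0.86, 0.90 and 1.78 TPM, 0.03 above mitosis at 20 minutes, so its mitotic level differed between the arms by more than 1.5-fold, at 0.86 TPM with auxin and 0.24 TPM without it. Mir20a, a hairpin of the proliferation-associated cluster hosted by Mir17hg, was listed at 0 in mitosis and at 0.74 and 1.44 TPM at 20 and 30 minutes, and was 0.80 and 1.29 above. Mir17hg itself was at 8.75, 9.62 and 9.27 TPM at these times, so the host entry was 0.12 and 0.07 above mitosis, less than the hairpin entry. Mir298, from the imprinted Gnas region, was at 7.50, 4.66 and 7.94 TPM, below mitosis by 1.5-fold at 20 but not at 30 minutes. At 40 minutes Mir298 was below by that much again, at 1.75 TPM. The values belong to the annotated hairpin genes, about 100 bases long, and not to processed microRNAs.

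The mature products of these 3 genes are shown because they are the microRNA genes that passed the line in either direction. The sequences and positions are those of RefSeq on GRCm38.p6, read 5′ to 3′, with the seed (bases 2 to 8), by which a microRNA pairs with its targets, in capitals.
miR-20a-5p (chr14:115044183-115044205, plus strand): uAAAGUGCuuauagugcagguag
miR-20a-3p (chr14:115044219-115044240, plus strand): aCUGCAUUacgagcacuuaaag
miR-34a-5p (chr4:150068473-150068494, plus strand): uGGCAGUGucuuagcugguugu
miR-34a-3p (chr4:150068517-150068537, plus strand): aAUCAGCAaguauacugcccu
miR-298-5p (chr2:174267553-174267575, minus strand): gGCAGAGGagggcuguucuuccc
miR-298-3p (chr2:174267512-174267535, minus strand): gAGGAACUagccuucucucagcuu
All 6 seeds differ from each other. Mir20a lies at chr14:115044157-115044263 and Mir34a at chr4:150068454-150068555.

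Protein-coding genes called above mitosis at both times were Rpl10a, Tob1, Slbp, Surf2, Emc6 and Rnasek. Tob1, an antiproliferative protein of the BTG/TOB family that recruits deadenylases to mRNA, was at 0.73, 1.88 and 2.21 TPM in mitosis, at 20 and at 30 minutes, and was 0.73 and 0.89 above. Slbp, which binds the stem-loop of histone mRNAs and is needed for their processing and translation, was at 2.01, 4.03 and 3.72 TPM, and was 0.74 and 0.65 above. Both had most of their difference already at 20 minutes.

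Emc6, a subunit of the ER membrane protein complex, was at 0.22, 1.17 and 0.99 TPM, and Rnasek, a ribonuclease of endosomes and lysosomes, was at 0.19, 0.85 and 1.07 TPM. Surf2, a gene of the tightly packed surfeit cluster, was at 0.89, 1.85 and 2.58 TPM, and its span overlaps Surf1 and Surf4, so its reads may be shared with them. Hypk, a partner of the N-terminal acetyltransferase complex, was called above only at 20 minutes, at 0.04, 0.77 and 0.30 TPM in mitosis, at 20 and at 30 minutes. Emc6, Rnasek and Hypk all started below 0.3 TPM, where a change of less than 1 TPM is enough to pass the line.

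Beyond these, the 88 genes called above at 30 minutes were of many kinds, and those given next were named after their values were seen. Of the 88, 84 are annotated as protein coding, 2 as microRNA and 1 as lncRNA, against 8593, 11 and 237 of the 8871 genes kept. The remaining gene of the 88, Pisd-ps1, has another annotation. The group held 11 of the 91 Rpl and Rps genes kept, against 0.992% of all genes kept. The median gene span of these Rpl and Rps genes was 3709 bp, against 21809 bp for all genes kept. Among the 88 were the translation initiation factors Eif4a1 at 3.95, 6.33 and 8.22 TPM and Eif1 at 6.13, 8.15 and 12.2 TPM in mitosis, at 20 and at 30 minutes. The group also held the cytoskeletal genes Tubb4b at 1.14, 2.15 and 3.12 TPM and Actg1 at 1.70, 2.49 and 3.60 TPM. Mitochondrial components were Cox6b2, Cox6a1, Mrpl41, Tomm6, Timm13 and Slc25a39, of which Cox6a1 was at 2.62, 3.39 and 4.90 TPM.

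Further genes of the 88 were likewise chosen after their values were seen. Pim1 and Pim3, serine/threonine kinases that cytokines induce, were at 1.05, 1.42 and 2.10 TPM and at 1.53, 1.75 and 3.47 TPM in mitosis, at 20 and at 30 minutes. Socs1, a feedback inhibitor of JAK kinases, was at 0.15, 0.24 and 0.77 TPM, and Snai1, a zinc-finger repressor known from epithelial-mesenchymal transition, at 0.24, 0.41 and 0.88 TPM. Fzd5, a Wnt receptor, was at 1.32, 1.35 and 2.73 TPM, and Dvl2, which relays Wnt signals inside the cell, at 1.03, 1.75 and 2.23 TPM.

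The promoters of 6 genes are shown because these genes stood above mitosis by at least 1.5-fold at 30 minutes and stand for several of the roles described: antiproliferative (Tob1 and Btg2), histone mRNA processing (Slbp), splicing (Srsf5 and Rsrp1) and stress response (Gadd45b). Each is the 150 bases before the start that the RefSeq promoter table on GRCm38.p6 uses, in the gene's own 5′ to 3′ direction. For Tob1 and Srsf5 that start lies inside the annotated span of the gene and is not its first base. Matches to 7 short motifs, searched on both strands, are in capitals. The motifs are TATAAA, the core of the TATA box; the CArG box, bound by serum response factor; TGACTCA, bound by AP-1; TGACGTCA, bound by Creb; AAGGTCA, bound by nuclear receptors; CCAAT, bound by NF-Y; and GGGCGG, bound by Sp1. A match on the other strand appears as its reverse complement, so that GGGCGG reads CCGCCC there, and the reverse complement of CCAAT reads ATTGG.
Tob1 (chr11:94211304-94211453, plus strand): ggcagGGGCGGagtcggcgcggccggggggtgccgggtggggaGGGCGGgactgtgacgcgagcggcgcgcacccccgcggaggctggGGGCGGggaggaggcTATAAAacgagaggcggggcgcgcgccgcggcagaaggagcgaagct
Slbp (chr5:33652575-33652724, minus strand): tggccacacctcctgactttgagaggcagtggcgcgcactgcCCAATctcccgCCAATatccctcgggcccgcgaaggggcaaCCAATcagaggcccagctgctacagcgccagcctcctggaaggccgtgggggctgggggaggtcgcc
Srsf5 (chr12:80945349-80945498, plus strand): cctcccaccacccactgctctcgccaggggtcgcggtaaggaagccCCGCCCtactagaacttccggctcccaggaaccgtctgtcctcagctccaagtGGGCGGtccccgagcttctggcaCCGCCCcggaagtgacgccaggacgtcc
Rsrp1 (chr4:134923475-134923624, plus strand): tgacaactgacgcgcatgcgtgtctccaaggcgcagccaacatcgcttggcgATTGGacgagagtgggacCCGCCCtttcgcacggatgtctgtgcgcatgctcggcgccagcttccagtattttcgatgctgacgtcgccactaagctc
Btg2 (chr1:134079156-134079305, minus strand): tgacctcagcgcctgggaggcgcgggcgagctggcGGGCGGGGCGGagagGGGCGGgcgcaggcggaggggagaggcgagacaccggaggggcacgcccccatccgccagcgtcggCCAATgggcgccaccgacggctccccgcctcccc
Gadd45b (chr10:80929941-80930090, plus strand): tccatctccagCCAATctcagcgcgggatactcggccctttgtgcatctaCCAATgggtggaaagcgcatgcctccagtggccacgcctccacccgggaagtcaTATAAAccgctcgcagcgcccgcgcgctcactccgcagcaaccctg
Tob1 and Gadd45b hold a TATAAA match, from -47 to -42 and from -46 to -41 counted from the base before the start as -1. Slbp holds 3 CCAAT matches and Btg2 holds 3 GGGCGG matches of which a neighbouring pair overlaps, while Srsf5 and Rsrp1 hold GGGCGG without TATAAA. A match is a description of the letters and not a site, and no motif was common to all 6 within these 150 bases, while in the windows of 300 bases used next GGGCGG was found in all 6.

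Over the 73 of the 88 genes with a promoter in the RefSeq table, taken as 300 bases from 250 before to 50 after the start, GGGCGG was found in 58 (79.5%), against 68.7% of 7162 promoters of all genes kept, 62.6% of 1352 promoters of the other genes in the shortest of 5 groups by gene span and 35.9% of all 27025 promoters in the table. CCAAT was found in 38 (52.1%), against 40.4%, 39.9% and 38.0% in those sets. TATAAA was found in 7 (9.59%), against 5.91%, 7.99% and 14.2%. The remaining motifs were rare in the group, with TGACTCA in 4 (5.48%, against 2.75%, 2.51% and 5.17%), the CArG box in 3 (4.11%, against 1.26%, 1.26% and 1.59%), TGACGTCA in 3 (4.11%, against 3.98%, 4.36% and 1.85%) and AAGGTCA in 2 (2.74%, against 2.92%, 4.36% and 4.65%). With 3 or 4 genes behind a share, 1 gene moves it by more than 1 percentage point.

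Gene lists were read by how many kept members were called above, how many stood above mitosis by any amount, and their median difference. The all-gene values were 0.113%, 73.6% and 0.04 at 20 minutes and 0.992%, 46.9% and -0.01 at 30 minutes. Lists also differ in gene span, by which the medians at 30 minutes are ordered further below. Median spans were 7423 bp for immediate early, 3738 bp for ribosomal protein and 6499 bp for formative genes. They were 38184 bp for Polycomb genes and 21809 bp for all genes kept. How far a list's values go with span was not tested. Immediate early genes, which cells switch on without new protein synthesis, had 22 of 23 kept members above mitosis at 30 minutes and a median of 0.29, against 0.16 at 20 minutes. Of these, 2 were called above. Btg2, an antiproliferative gene induced by p53 and growth factors, was at 2.43, 2.99 and 5.05 TPM in mitosis, at 20 and at 30 minutes, 0.82 above at 30 minutes. Gadd45b, a stress sensor that acts on MAP kinase signalling, was at 0.44, 0.62 and 1.27 TPM, 0.66 above. Zfp36l2, an mRNA decay factor, was the 1 member below, at 1.17, 1.02 and 0.97 TPM.

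The remainder of the immediate early list moved by less on the scale of log2(TPM + 1), which understates changes of low genes. By ratio of TPM the order differs, since Fosb and Myc rose by more than Btg2. Klf10, a transcription factor induced by TGF-beta, was at 0.94, 1.13 and 1.69 TPM, 0.47 above mitosis at 30 minutes, and Btg1, a relative of Btg2, at 0.75, 0.9994 and 1.58 TPM, 0.56 above. Myc was at 0.19, 0.41 and 0.49 TPM, Fosb at 0.02, 0.12 and 0.27 TPM and Dusp5, a nuclear ERK phosphatase, at 0.38, 0.69 and 0.78 TPM. All of these were below 2 TPM, and 12 of the 41 genes of the list are not in the table.

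The p53 list had 18 of 20 kept members above mitosis at 30 minutes and a median of 0.20, against 0.17 at 20 minutes, with 3 called above. Bbc3 and Pmaip1, which encode the pro-apoptotic proteins Puma and Noxa, were at 0.57, 1.15 and 1.86 TPM and at 0.38, 0.66 and 1.24 TPM, 0.87 and 0.70 above at 30 minutes. Phlda3, an inhibitor of Akt, was at 1.14, 1.53 and 2.22 TPM, 0.59 above. Ccng1 and Aen were 0.43 and 0.42 above, while Rrm2b, a ribonucleotide reductase subunit, was at 0.42, 0.40 and 0.31 TPM, 0.12 below.

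Cytoplasmic ribosomal protein genes had 43 of 46 kept members above mitosis at 30 minutes and a median of 0.19, against 0.12 at 20 minutes. Of these, 6 were called above at 30 minutes and 2, Rpl10a and Rpl10, at 20 minutes. Rps15, of the small subunit, was at 3.38, 4.25 and 7.30 TPM in mitosis, at 20 and at 30 minutes, 0.92 above at 30 minutes. Rpl10 was at 2.48, 4.34 and 4.02 TPM, highest at 20 minutes. Rpl8 had the smallest difference at 30 minutes, -0.07, at 4.64, 5.12 and 4.39 TPM. Over all 91 Rpl and Rps symbols kept, a set chosen by name after the values were seen, 76 were above mitosis, and their summed level was 514, 561 and 613 TPM in mitosis, at 20 and at 30 minutes.

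Genes of the G1/S transition and DNA replication had 29 of 37 kept members above mitosis at 30 minutes and a median of 0.12, against 0.18 at 20 minutes. Gins2, a subunit of the replicative helicase, was called above at 1.29, 1.99 and 2.50 TPM in mitosis, at 20 and at 30 minutes, as was Slbp. Pola1, the catalytic subunit of DNA polymerase alpha and a gene of 327622 bp, was at 2.53, 2.54 and 1.9994 TPM, 0.24 below. Mitotic genes, many of whose proteins are destroyed at exit, had no member called in either direction, 21 of 36 above mitosis and medians of 0.10 at 20 minutes and 0.05 at 30 minutes. Ube2c, the ubiquitin-conjugating enzyme of the anaphase-promoting complex, was at 1.11, 1.35 and 1.80 TPM and Pttg1, which encodes securin, at 1.32, 2.22 and 1.87 TPM, while Bub1, a spindle checkpoint kinase, was at 3.40, 3.63 and 2.77 TPM, 0.22 below.

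Sterol genes were split between 2 members and the rest. Idi1, an isomerase of the isoprenoid pathway, was at 1.04, 1.98 and 2.56 TPM in mitosis, at 20 and at 30 minutes, 0.80 above at 30 minutes, and Insig1, which retains the sterol sensor in the ER, was at 1.64, 2.66 and 3.15 TPM, 0.65 above. The list's median was 0.04 with 19 of 24 members above, and Nsdhl, a sterol dehydrogenase, was 0.10 below. Heat shock and chaperone genes had 14 of 19 above with a median of 0.06, and only the co-chaperone Dnajb1 was called, at 1.55, 1.88 and 2.83 TPM. Hsp90aa1, the inducible Hsp90, was at 2.70, 3.51 and 4.26 TPM, 0.51 above, and Chordc1, a partner of Hsp90, was 0.22 below.

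In the list of integrated and oxidative stress genes 11 of 18 were above, with a median of 0.08. Ddit4, an inhibitor of mTORC1, was called above at 0.49, 0.60 and 1.33 TPM, and Ddit3, a transcription factor of the stress response, was 0.39 above. Chac1, a glutathione-degrading target of Atf4, was at 0.49, 0.26 and 0.11 TPM, 0.42 below, and is among the 12 smallest differences at 30 minutes.

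SR proteins and splicing regulators had 26 of 26 members above mitosis at 20 minutes and 13 of 26 at 30 minutes, with medians of 0.16 and 0.00. Over all genes kept the share above mitosis was also lower at the later time, at 73.6% and then 46.9%. Srsf2 was at 5.67, 7.12 and 11.2 TPM and Srsf5, described above, also passed the line; Srsf1 and Srsf6 were 0.54 and 0.50 above at 30 minutes. Rbm39, Luc7l2 and Luc7l, which take part in splice site choice, were 0.24, 0.23 and 0.22 below at 30 minutes. Genes of RNA polymerase II and elongation had 30 of 30 above at 20 minutes and 18 of 30 at 30 minutes, with medians of 0.14 and 0.05. Cdk9, the kinase of P-TEFb that releases paused polymerase, was the 1 member called, at 2.46, 3.08 and 4.42 TPM. Gtf2f1, of the initiation factor TFIIF, was 0.52 above, and Aff4, a scaffold of the super elongation complex, was 0.22 below.

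Ribosome biogenesis genes had 25 of 25 above at 20 minutes and 13 of 25 at 30 minutes, with medians of 0.09 and 0.11 and none called. Gnl3, nucleostemin, was at 4.83, 7.09 and 6.96 TPM, 0.45 above at 30 minutes, and Bop1 was 0.35 above, while Wdr75 was 0.16 below. Polycomb and chromatin genes had 23 of 28 above at 20 minutes and 10 of 28 at 30 minutes, with medians of 0.05 and -0.07 and none called. Brd2, a bromodomain protein that binds acetylated histones, was at 5.18, 6.54 and 7.15 TPM, 0.40 above, as was Pcgf1, a Polycomb ring finger protein. Jarid2, a partner of the Polycomb repressive complex with a gene of 190870 bp, was at 15.1, 15.2 and 12.5 TPM, 0.25 below.

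Naive pluripotency genes stayed near the level of mitosis as a list, with 16 of 31 above and a median of 0.01 at 30 minutes. Dppa5a, an RNA-binding protein of early embryos, was called above at 5.90, 6.17 and 9.78 TPM in mitosis, at 20 and at 30 minutes. Klf2, a zinc-finger factor that holds cells in the naive state, was called above at 2.58, 3.36 and 4.44 TPM, and Klf4 lay just short of the line at 0.41, 0.54 and 1.11 TPM. Gbx2, Mycn and Utf1 were 0.50, 0.48 and 0.41 above, while Jam2, a junction protein, was 0.26 below.

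The degradable receptors themselves differed little. Esrrb was at 1.61, 1.68 and 1.73 TPM, 0.07 above mitosis at 30 minutes, and Nr5a2 at 2.75, 2.78 and 2.17 TPM, 0.24 below. In the list of formative and primed genes 4 of 9 kept members were above at 30 minutes, with a median of -0.08 and none called. Spry2, a feedback inhibitor of receptor tyrosine kinases, was 0.38 above, Tcf15 was 0.16 above and Zic5 0.21 below. Zinc finger genes with the symbol Zfp, a set chosen by name after the values were seen, had 89 of 256 above, a median of -0.06 and none called.

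**Figure D3:**
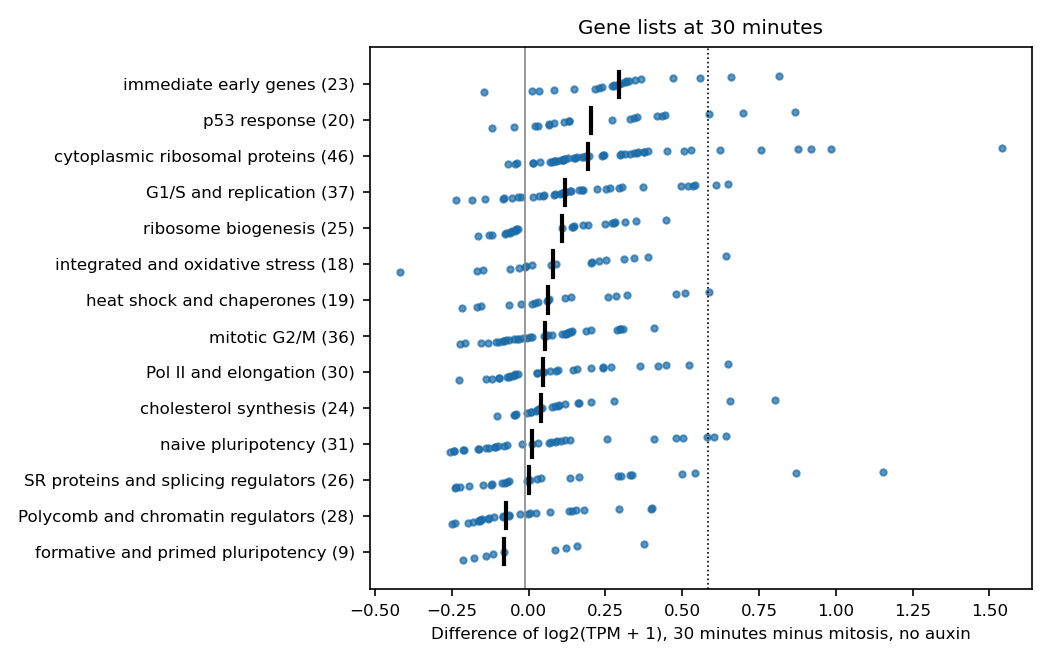
Difference of log2(TPM + 1) at 30 minutes from mitosis without auxin for the kept members of each gene list (points), with the list's median (bar), beside all 8871 genes (median -0.01). Immediate early genes have the highest median, 0.29, and Polycomb and formative genes the lowest, -0.07 and -0.08. Median gene spans of these lists, in the order named, are 7423, 38184 and 6499 bp, and span was not accounted for. The grey line marks the median of all genes and the dotted line 1.5-fold.

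Genes called below mitosis were few. At 30 minutes these were Snhg9, a small nucleolar RNA host, at 2.23, 2.82 and 0.89 TPM in mitosis, at 20 and at 30 minutes; Scamp4, given above with Adat3; and Adam1a, a sperm-associated metalloprotease gene, at 0.81, 0.90 and 0.17 TPM. Their differences were -0.78, -0.71 and -0.63. Adam1a was also below with auxin, at 0.73, 0.19 and 0.14 TPM. Snhg9 went the other way there, at 0.55, 1.37 and 1.23 TPM.

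The remaining 9 of the 12 smallest differences at 30 minutes were between -0.51 for Doc2a, a calcium sensor of vesicle release, and -0.42 for Lime1, an adaptor of lymphocyte signalling. They included Mplkip at 2.41, 1.87 and 1.41 TPM and Ccdc107 at 5.16, 3.90 and 3.51 TPM in mitosis, at 20 and at 30 minutes, and the imprinted noncoding RNA Rian at 7.42, 7.12 and 5.24 TPM. In the arm with auxin the mitotic level was lower for 10 of the 12 genes, by a median of 0.21, and for 3 of them by 1.5-fold, such as Mplkip at 0.85 TPM and Ccdc107 at 2.05 TPM with auxin, against 2.41 TPM and 5.16 TPM without. Of the 8871 genes, 4109 were lower in mitosis with auxin and the median was 0.01 higher. For the 12 largest differences at 30 minutes the arrested cells with auxin were lower in 1 gene, and the median was 0.10 higher. All these differences are taken from 1 mitotic column, so a high or low mitotic mean enters every one of them.

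At 20 minutes the genes called below were Snhg15 at 8.34, 3.42 and 8.13 TPM, Snhg6 at 0.81, 0.00 and 0.87 TPM, 1700030C10Rik at 1.14, 0.25 and 1.16 TPM, and Mir298, given above. All 4 were back at the mitotic level at 30 minutes. At 40 minutes Mir298 and 1700030C10Rik were again below it by 1.5-fold, at 1.75 and 0.01 TPM. Snhg15 and Snhg6 were then above it, at 33.3 and 9.38 TPM. None was called below at 20 minutes with auxin, where Snhg15 was at 2.58, 2.95 and 8.93 TPM. For the 6 smallest differences at 20 minutes, the mitotic level with auxin was lower in all 6, by a median of 0.65.

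The genes called above at 30 minutes were mostly short. The span from the first to the last annotated base, taken from RefSeq for 8866 of the 8871 genes, had a median of 3442 bp in the 88 genes, against 21809 bp in all genes kept. The longest of the 88, Raver1, spans 17842 bp. When the genes were split by span into 5 groups of equal size, 76 of the 88 (86.4%) lay in the shortest group. There 4.29% of genes were called above, against 0.62% in the next group, 0.0564% in the middle group and none in the 2 longest.

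The medians followed the same order. From the shortest to the longest group, whose median spans were 4635, 11867, 21803, 39366 and 93652 bp, the median difference at 30 minutes was 0.12, 0.04, 0.00, -0.04 and -0.10. The share of genes above mitosis was 75.4%, 64.6%, 49.7%, 32.9% and 11.7%. At 20 minutes the medians were 0.07, 0.06, 0.05, 0.04 and 0.02, a narrower range in the same order. With auxin the medians at 30 minutes were 0.11, 0.07, 0.05, 0.02 and -0.02, so the order was the same in libraries that the description above did not use. The order is a description of genes within group means. TPM divides by length and by a total for the library, so its values are relative and are not amounts per cell. Without auxin the listed genes summed to 17189, 18417 and 17334 TPM in mitosis, at 20 and at 30 minutes. At 60 minutes, outside the period described here, they summed to 49059 TPM. How far the order by span goes with the relative scale was not tested.

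The mitotic level was not equal across these groups, since genes of the shortest one had a median of 0.80 TPM, and those with the longest spans 1.23 TPM. Within the shortest group, genes were therefore split again into 5 groups by their level in mitosis. The share called above was 3.39%, 2.54%, 4.24%, 5.07% and 6.20% from the lowest to the highest level, and the median difference lay between 0.11 and 0.14 in all 5. Between the arms in mitosis the median difference was -0.01 for the shortest genes and 0.01 for the longest ones, but of the genes called between the arms, 2 of the 3 above and 9 of the 13 below were in the shortest group.

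**Figure D4:**
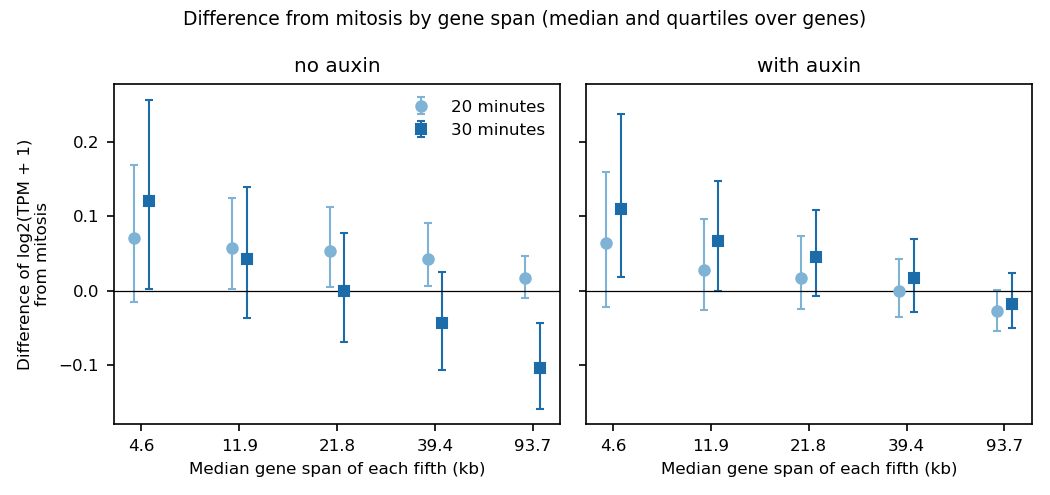
Median difference of log2(TPM + 1) from mitosis (points) with quartiles over genes (bars) in 5 groups of equal size by gene span (x axis, median span in kb), at 20 and 30 minutes, without auxin (left) and with auxin (right). At 30 minutes the medians are ordered by span in both arms, with extremes of 0.12 and -0.10 without auxin and of 0.11 and -0.02 with auxin.

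The same genes were read in the arm with auxin, whose 9 libraries, mitosis included, had no part in choosing them. Of the 88 genes, 87 were above their own mitosis at 30 minutes with auxin, the exception being Snhg17 at 0, and 32 (36.4%) passed 1.5-fold, against 72 of all genes (0.812%); 3 of all genes (0.0338%) were called below there. Their median difference with auxin was 0.51, against 0.03 for all genes. At 20 minutes with auxin 79 were above mitosis and 4 passed the line, against 13 of all genes (0.147%), with 1 of all genes (0.0113%) called below. The shared 32 are 44.4% of the 72 genes called above at 30 minutes with auxin. At both times with auxin 9 genes (0.101%) were called above and 1 (0.0113%), Zc3h7a, below. Over all 8871 genes the differences at 30 minutes had a Pearson correlation of 0.69 and a Spearman correlation of 0.65 between the arms, as a description over genes, which are not replicates. At 20 minutes the correlations were lower, at 0.44 and 0.46, and 2 of the 10 genes called above without auxin were among the 13 called above with it, which is 20.0% and 15.4% of the lists.

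Genes that passed the line in both arms included Rpl9, with a difference of 1.08 without auxin and 1.46 with it, Hist1h2br with 1.34 and 1.30, Srsf5 with 1.16 and 0.81, Btg2 with 0.82 and 0.82, Idi1 with 0.80 and 0.81, and Slbp with 0.65 and 0.70. Rpl10a had 1.54 without auxin and 0.58 with it, and its level in mitosis was 2.32 TPM with auxin and 1.23 TPM without it. Adat3, Marcksl1 and Rpl13 also fell short of the line with auxin, at 0.49, 0.44 and 0.53. Klf2 was 0.61 above without auxin and 0.31 above with it, and Dppa5a 0.64 and 0.52; whether any gene differs between the arms could not be tested.

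**Figure D5:**
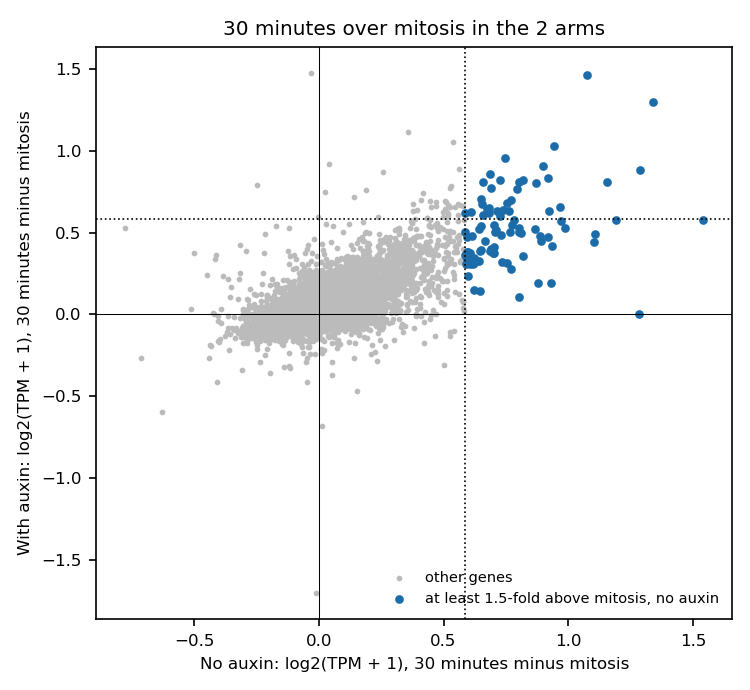
Difference of log2(TPM + 1) from mitosis at 30 minutes without auxin (x axis) and with auxin (y axis) for 8871 genes, with the 88 genes called above without auxin in colour and dotted lines at 1.5-fold. Of the 88, 87 lie above 0 with auxin and 32 past 1.5-fold.

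Between 20 and 30 minutes 38 genes were called higher without auxin (0.428%) and 8 lower (0.0902%), and with auxin 18 were called higher (0.203%) and 1 lower (0.0113%). The median of that step was -0.06 without auxin and 0.02 with it, and 32.9% and 68.6% of genes were higher at 30 than at 20 minutes.

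Of the 88 genes, 87 had their highest value at a later time or in asynchronous cells, the exception being Adat3, which was highest at 30 minutes. Their median was 1.16 TPM in mitosis and 1.77, 2.57, 6.58, 10.7, 12.1, 8.46 and 6.90 TPM at the 7 successive times after release, which run to 120 minutes, with 2.74 TPM in asynchronous cells. Over all genes kept the medians were 1.17, 1.25, 1.18, 1.56, 2.72, 3.71, 3.46 and 3.07 TPM over the same stages, and 1.83 TPM in asynchronous cells. The 2 sets thus started at the same level in mitosis. At 50 minutes 33 of the 88 (37.5%) had their highest value, against 6.39% of all genes, and 38 (43.2%) had it at 60 minutes, against 45.4%.

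Several of the named genes were higher at 50 minutes than in asynchronous cells. Hist1h2br was at 27.9 TPM at 50 minutes and 1.91 TPM in asynchronous cells, and Btg2 at 24.4 TPM and 1.17 TPM. Mir20a was at 22.9 TPM and 0.60 TPM, and these 3 genes were highest at 50 minutes. Slbp was at 22.9 TPM at 50 minutes, 24.4 TPM at 60 minutes, where it was highest, and 3.55 TPM in asynchronous cells. Rpl10a was at 20.03 TPM at 50 minutes and 18.5 TPM in asynchronous cells.

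A peak of the deposited Nr5a2 list, made in wild-type E14Tg2a cells, lay within the gene or 10 kb of it for 66 of the 88 genes (75%), against 6396 of 8862 genes kept (72.2%). Within the shortest span group the shares were 56 of 76 (73.7%) for genes called above at 30 minutes and 1116 of 1697 (65.8%) for the others. In the authors' deposited table, 10 of the 88 genes (11.4%) are marked down, among them Tob1, Klf2 and Dppa5a, against 9.59% of all genes, and 2 (2.27%) are marked up, Gadd45b and Raver1, against 8.25%. The call rests on these samples too, and the labels give neither its contrast nor its threshold.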

How the data were processed

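RNA was measured by ribo-depleted, stranded, paired-end RNA-seq. The authors deposited TPM as 1 column per group; STAR, RSEM and DESeq2 with mm10 are named without versions, per the submitters' processing notes. Multiplied by 3, 246530 of 246530 values above 0 were whole at 9 decimals, as means of 3 libraries would be, so the planned limma tests could not be run and depth per library is unknown. From TPM, log2(TPM + 1) was taken for the 8871 genes of at least 1 TPM in any column without auxin, and a group's difference from its own mitosis was called at 1.5-fold, with no p-value. Differences on this scale understate changes of low genes. Scripts were tested on simulated data, with Python 3.11.15, pandas 2.3.3, NumPy 2.4.6 and matplotlib 3.10.9.

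Named genes are the 12 largest and 12 smallest differences at 30 minutes, the 6 largest and 6 smallest at 20 minutes, all called at both times, the receptors, and 2 highest and 1 lowest of each list; others were named after their values were seen. Members and lists were chosen with earlier results of these data known. Gene spans, overlaps, promoters and microRNAs are from RefSeq on GRCm38.p6, with positions for 8866 genes. The list of 35266 Nr5a2 peaks was deposited by the authors without signal per library; Bowtie2 and MACS2 are named per the submitters' processing notes. Alternatives were a pseudocount of 0.1, no filter or 5 TPM, median centring, quantile normalization, a 2-fold line and, chosen after seeing the data, leaving out genes that overlap another gene.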

Additional observations from a re-analysis of the deposited data

How the results depend on the processing

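The number of genes called depended on the scale of the values. With a pseudocount of 0.1, 222 genes were called above and 43 below at 20 minutes, 535 above and 40 below at 30 minutes, and 160 above and 8 below at both; mitosis between the arms then gave 71 above and 112 below. With quantile normalization the counts were 27, 13, 178 and 10, with 17 above at both. At 2-fold they were 1, 1, 9 and 0, with 0 above at both, and 22.2% of those 9 passed the line with auxin. Leaving out genes that overlap another gene, an alternative chosen after seeing the data, left 2 below at 20 minutes, 56 above and 1 below at 30 minutes, which has fewer genes by its construction. The median at 20 minutes was 0.0732 with a pseudocount of 0.1, 0.0154 with no filter, 0.0857 at 5 TPM, 0.00 when centred and -0.0101 with quantile normalization, and the median at 30 minutes was 0.0234 at 5 TPM. In the shortest of the 5 span groups the median at 30 minutes was 0.25, 0.0403, 0.21 and 0.15 with a pseudocount of 0.1, no filter, 5 TPM and quantile normalization, and in the longest it was -0.18 with a pseudocount of 0.1, -0.0379 with no filter, -0.14 with quantile normalization and -0.0818 without overlapping genes. The share of genes called above at 30 minutes that lie in the shortest span group was 75.1% to 100% over these alternatives, and the share also called with auxin 22.2% to 52.7%, both examined after seeing the data. No named gene past the 1.5-fold line turned its direction at 30 minutes, and genes short of the line were not checked for a change of sign. With a pseudocount of 0.1, 11 more passed the line, and with quantile normalization 4 more. The cause of these shifts was not tested. No paired analysis was possible because the deposited columns are group means and carry no replicate numbers; leaving out single libraries was not run for the same reason. Depth limits could not be given, since TPM keeps no depth.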

Other observations

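The median of all genes against mitosis had a different order in the arms, at 0.04 at 20 minutes and -0.01 at 30 minutes without auxin, and at 0.01 and 0.03 with it.

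Host genes of small nucleolar RNAs differed between columns as well. Snhg15 was at 2.58 TPM in mitosis with auxin and 8.34 TPM without it, and at 30 minutes it was at 8.93 TPM with auxin and 8.13 TPM without it. Snhg6 was listed at 0 at 20 minutes in both arms, with 0.45 TPM in mitosis with auxin and 0.81 TPM without it. Of the 8 Snhg genes kept, a set chosen by name after the values were seen, 2 were called below at 20 minutes, 1 above and 1 below at 30 minutes. Over all genes kept the shares were 0.0451% below at 20 minutes, and 0.992% above and 0.0338% below at 30 minutes. With so few genes, picked after their values were seen, these counts are a description only.

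Over the genes kept, the lowest difference with auxin at 20 minutes belonged to Zc3h7a, at -2.08, and it was -1.70 at 30 minutes; it was at 12.1, 2.09 and 3.03 TPM in mitosis, at 20 and at 30 minutes with auxin, and at 3.59, 2.93 and 3.56 TPM without it, so the arms differed most in mitosis.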
